A study of Mus musculus with 6 samples.

Results

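The 9 genes examined here encode regulators and markers of epithelial identity in the enamel organ: the transcription factor genes Trp63, Grhl1, Grhl2, Grhl3, Ovol1 and Klf5, the splicing regulator genes Esrp1 and Esrp2, and the adhesion gene Epcam. They were chosen by symbol from the 20161 genes of the deposited normalized table, and all 9 were found there. Of the 9, 8 passed the filter on low counts and entered the test of 16011 genes, and Grhl3 did not pass it. RNA came from first molar tooth germs of C57BL/6 mice at postnatal day 7. The groups were wild type (WT) and Gpr115-/- littermates (Gpr115-KO), targeted at the adhesion G protein-coupled receptor gene Gpr115, listed under its current symbol Adgrf4, with 3 libraries each. The labels give neither how the allele was made, nor which part of the gene it removes, nor how many animals contributed to a library, so the spread behind each p-value is that between these libraries and may be technical. The study asked what the loss of this receptor changes in the tooth germ, and the comparison below asks whether the epithelial regulators were among the transcripts that differed.

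The enamel organ is an ectodermal epithelium. p63, the product of Trp63, marks and maintains the basal cells of such epithelia and is needed for teeth to form. Grainyhead-like factors bind the regulatory DNA of genes for cell junctions and barrier proteins, Ovol1 is a zinc finger repressor that restrains mesenchymal genes, and Klf5 is an activator of basal epithelial cells. ESRP1 and ESRP2 bind RNA and select the epithelial splice forms of genes such as Fgfr2, Cd44 and Ctnnd1. EpCAM is a membrane protein of cell contact and signalling found on most simple epithelia.

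None of the 8 tested genes differed between the genotypes in edgeR's quasi-likelihood test, with Benjamini-Hochberg adjusted p-values of 0.573 to 0.957. Over all 16011 genes 0.15% were called at an adjusted p under 0.05, and none of the 8 was. At an unadjusted p under 0.05 the count was 0 of 8 in edgeR, in DESeq2 and in limma-voom, against 12.3% of all tested genes in edgeR. The WT and Gpr115-KO libraries overlapped in each of the 9 genes, while 17.5% of all tested genes had libraries that did not overlap. Fitted log2 fold changes (Gpr115-KO minus WT) lay below 0 for 6 of the 8 and above 0 for 2, with a median of −0.23, against a median of 0.01 and 48.7% below 0 over all tested genes. Levels are given as CPM, the normalised read count on the TMM-scaled library size. In a bulk sample, fewer cells of a type and less RNA per cell cannot be told apart.

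**Figure D1:**
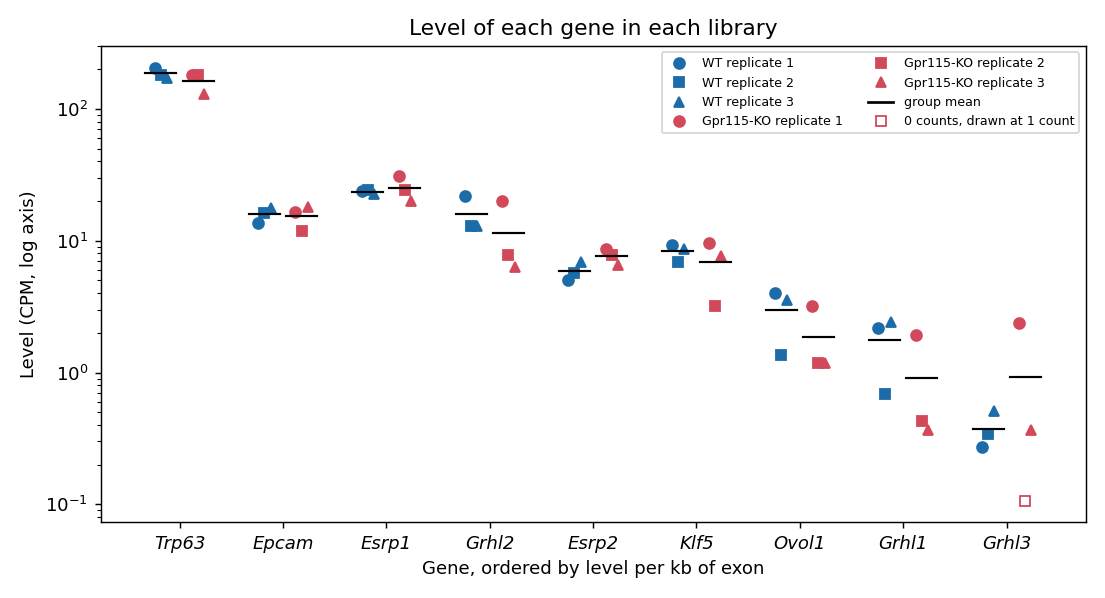
Level of each of the 9 genes in each library, in CPM on a log axis, with WT in blue and Gpr115-KO in red, a marker shape for each replicate number, black bars for group means, and an open symbol for a count of 0. Trp63 lies between 129 and 206 CPM in all libraries, and the blue and red points overlap in every gene.

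The libraries held 8317302 to 11122821 gene counts, and 1 count was worth 0.0907 to 0.114 CPM. The targeted gene Adgrf4 was lower in each Gpr115-KO library (20.6 to 39.2 CPM) than in any WT library (62.5 to 67.5 CPM), by −1.18 on the log2 scale (SE 0.21, edgeR adjusted p = 0.0887). It passed the threshold under 4 alternatives, among them DESeq2 (adjusted p = 4.9e-04) and edgeR with the replicate block (adjusted p = 0.0254). Adgrf4 reads thus remained in all Gpr115-KO libraries (344, 193 and 301 counts), and gene counts cannot tell reads of remaining exons from those of an intact transcript. Defining genes of the labelled tissue were abundant: the 6 secretory ameloblast markers summed to 91561 to 201831 CPM and the 8 odontoblast and bone markers to 43619 to 94152 CPM. The 12 general dental epithelium markers, among them Krt14, Krt5 and Cdh1, summed to 3078 to 3191 CPM in WT and to 3429, 3934 and 1786 CPM in Gpr115-KO replicates 1 to 3. The third Gpr115-KO library was thus the lowest of the 6 in these markers. The sum of its 10 pulp mesenchyme markers was the highest, at 3930 CPM against 2301 to 3079 CPM in the others. The median of those 10 was 128 CPM there and 119 to 138 CPM in the others. The 12 keratinizing oral epithelium markers, among them Krt4, Krt13 and Krtdap, summed to 160, 44.8 and 133 CPM in WT and to 309, 47.5 and 59.3 CPM in Gpr115-KO. None of the 12 was at 0 in all libraries. The 7 erythroid markers summed to 139 to 158 CPM in WT and 159 to 396 CPM in Gpr115-KO, and the 8 skeletal muscle markers to 35.4 to 53.0 and 21.5 to 228 CPM. The part of these other cell types in the levels below was not tested.

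Levels of different genes were compared per kilobase of exon. Trp63 stood highest, at 20.8 ± 2.997 CPM per kb (SD, n = 6 libraries), followed by Epcam at 7.13 ± 1.10 and Esrp1 at 3.85 ± 0.597 CPM per kb. The ranges of these 3 genes over the 6 libraries did not overlap each other, nor did that of Esrp1 overlap the next. Grhl2 (1.58 ± 0.721 CPM per kb), Esrp2 (1.56 ± 0.305) and Klf5 (1.46 ± 0.457) came next and were not separated by their spread. Ovol1 had 0.691 ± 0.374, Grhl1 0.242 ± 0.171 and Grhl3 0.232 ± 0.313 CPM per kb. Klf5 exceeded Ovol1, and Ovol1 exceeded Grhl1, in 6 of 6 libraries, although the ranges overlapped, and Grhl1 exceeded Grhl3 in 4 of 6.

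Trp63 (ENSMUSG00000022510; chromosome 16, 25683763 to 25892102 on GRCm38, plus strand) read 206, 181 and 172 CPM (WT) against 182, 179 and 129 CPM (Gpr115-KO). Only Gpr115-KO replicate 3 lay outside the WT range, and it was the library with the least dental epithelium signal. Trp63 had a fitted log2 difference of −0.19 (SE 0.18, 95% interval −0.58 to 0.21, edgeR adjusted p = 0.708). As a ratio to the summed dental epithelium markers, Trp63 stood at 64.5, 58.1 and 55.8 CPM per 1000 CPM in WT and at 53.1, 45.6 and 72.3 in Gpr115-KO. On that scale the third Gpr115-KO library, the lowest in CPM, was the highest of the 6. The markers share genes such as Krt5 and Krt14 with the p63 and Grainyhead-like targets listed below. This ratio is thus not free of p63's own targets. The gene has long forms with an activation domain and short ΔN forms, and a count per gene does not separate them.

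The Grainyhead-like genes were led by Grhl2, a factor known for maintaining E-cadherin and claudins. Grhl2 (ENSMUSG00000022286; chromosome 15, 37233036 to 37363569, plus strand) read 21.7, 12.8 and 13.0 CPM (WT) against 19.9, 7.80 and 6.31 CPM (Gpr115-KO). Its first library in each genotype was the highest, and Gpr115-KO replicates 2 and 3 lay below the WT range. For Grhl2 the log2 fold change was −0.49 (SE 0.42, 95% interval −1.45 to 0.46, edgeR adjusted p = 0.679). Per kilobase Grhl2 made up 70.8% to 85.9% of the summed Grainyhead-like signal in WT and 65.7% to 92.1% in Gpr115-KO.

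Grhl1 (ENSMUSG00000020656; chromosome 12, 24572283 to 24617391, plus strand), tied to desmosomal cadherins in skin, had 24, 6 and 24 counts in WT and 17, 4 and 4 in Gpr115-KO. In CPM these were 2.18, 0.682 and 2.44 against 1.94, 0.428 and 0.366. WT replicates 1 and 3 and Gpr115-KO replicate 1 were thus high, the other 3 libraries low, and both genotypes held high and low libraries. Its log2 fold change of −0.99 had an SE of 0.70 and a 95% interval of −2.54 to 0.55 (edgeR adjusted p = 0.596).

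Grhl3 (ENSMUSG00000037188; chromosome 4, 135541888 to 135573630, minus strand), a factor of barrier formation in surface epithelium, was near the limit of detection. It had 3, 3 and 5 counts in WT and 21, 0 and 4 in Gpr115-KO. The 21 counts of Gpr115-KO replicate 1 correspond to 2.39 CPM (exact 95% Poisson interval 1.48 to 3.66 CPM, counting error only), above the upper bounds of 0.795 to 1.19 CPM in the WT libraries. The count of 0 in Gpr115-KO replicate 2 allows up to 0.394 CPM by the same kind of interval. Gpr115-KO replicate 1 was also the library with the highest keratinizing epithelium sum, 309 CPM. That match rests on this library alone. WT replicates 1 and 3 had sums of 160 and 133 CPM with 3 and 5 counts of Grhl3. WT replicate 2 had 44.8 CPM with 3 counts. Without the count filter, an alternative setting, the difference for Grhl3 was 1.24 on the log2 scale (SE 0.84, edgeR adjusted p = 0.671).

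RefSeq promoter windows (GRCm38.p6) matched 3 of the 9 genes, and they are shown because they hold the least expressed members, Grhl1 and Grhl3, beside Epcam, which was expressed at a steady level. The sequences run 5′ to 3′ on the gene's strand and end just before the first transcribed base: chr12:24572037-24572282 (plus) for Grhl1, chr4:135573633-135573882 (minus) for Grhl3 and chr17:87635729-87635978 (plus) for Epcam. Capitals mark every match, on either strand, to 5 motifs: the Grainyhead site AACCGGTT, the E-box CACCTG bound by Zeb and Snail repressors, the GC box CCGCCC and the CACCC box CCACCC of the Klf and Sp family, and the Ovo site CCGTTA.
Grhl1: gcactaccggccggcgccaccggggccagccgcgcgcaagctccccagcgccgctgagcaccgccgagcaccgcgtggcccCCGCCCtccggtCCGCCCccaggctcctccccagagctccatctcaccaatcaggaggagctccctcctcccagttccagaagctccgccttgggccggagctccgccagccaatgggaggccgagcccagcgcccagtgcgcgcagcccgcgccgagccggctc
Grhl3: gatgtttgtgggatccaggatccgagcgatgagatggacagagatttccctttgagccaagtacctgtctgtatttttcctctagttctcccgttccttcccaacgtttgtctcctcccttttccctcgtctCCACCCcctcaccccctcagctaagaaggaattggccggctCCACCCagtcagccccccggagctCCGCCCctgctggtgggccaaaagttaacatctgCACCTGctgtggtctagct
Epcam: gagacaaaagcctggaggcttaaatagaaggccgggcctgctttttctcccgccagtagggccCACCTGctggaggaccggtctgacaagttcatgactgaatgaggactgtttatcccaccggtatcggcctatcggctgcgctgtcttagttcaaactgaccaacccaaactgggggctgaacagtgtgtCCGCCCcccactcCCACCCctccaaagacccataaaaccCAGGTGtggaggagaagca
The Grhl1 window held 2 GC boxes and no other match. The Grhl3 window held 1 E-box, 1 GC box and 2 CACCC boxes, and the Epcam window 2 E-boxes, 1 GC box and 1 CACCC box. Of 32851 windows of 250 bases before a start in the same table, 17.2% held the E-box, 32.7% the GC box, 28.1% the CACCC box, 2.18% the Ovo site and 0.116% the Grainyhead site. These matches describe letters, and binding was not measured. A further Grhl1 window, within the gene, is not shown.

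The other transcription factor genes were Ovol1 and Klf5. Ovol1 (ENSMUSG00000024922; chromosome 19, 5549136 to 5560646, minus strand) read 3.99, 1.36 and 3.56 CPM (WT) against 3.19, 1.18 and 1.19 CPM (Gpr115-KO). The same 3 libraries were high as for Grhl1. For Ovol1 the fold change was −0.70 on the log2 scale (SE 0.53, 95% interval −1.87 to 0.46, edgeR adjusted p = 0.620). Of its 3488 exonic bases 690 are shared with Gm31166 on the opposite strand (0.227 to 2.45 CPM), and strand was not marked, so reads of that stretch could belong to either gene.

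Klf5 (ENSMUSG00000005148; chromosome 14, 99298691 to 99315036, plus strand) read 9.34, 6.93 and 8.64 CPM (WT) against 9.69, 3.21 and 7.68 CPM (Gpr115-KO). Gpr115-KO replicate 2 stood alone at the low end, and the other 5 libraries lay within 6.93 to 9.69 CPM. Its difference between genotypes was −0.28 on the log2 scale (SE 0.35, 95% interval −1.06 to 0.51, edgeR adjusted p = 0.791), and it turned to 0.06 without that library. Gpr115-KO replicate 2 was also the lowest library in the sum of the 8 maturation ameloblast markers, at 2102 CPM against 5150 to 8860 CPM in the others. By the median of these markers it was not the lowest, at 59.3 CPM against 57.8 CPM in Gpr115-KO replicate 3.

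Grhl1, Grhl2, Ovol1 and Klf5 shared their 3 highest libraries, a set that did not follow genotype. In each of these 4 genes WT replicates 1 and 3 and Gpr115-KO replicate 1 were the 3 highest libraries. The margin between the CPM values of high and low libraries was widest for Grhl1 and Ovol1. Exact Poisson intervals of counting error, as used for Grhl3, still overlapped through WT replicate 2. Its upper bound for Grhl1 was 1.48 CPM, above the lower bounds of Gpr115-KO replicate 1 (1.13) and WT replicate 1 (1.39). Its upper bound for Ovol1 was 2.38 CPM, above the lower bound of 2.12 CPM in Gpr115-KO replicate 1. No other pair of a high and a low library overlapped in either gene. For Grhl2 the margin was small, with 13.0 CPM in WT replicate 3 and 12.8 CPM in WT replicate 2. For Klf5 it lay between 85 counts (8.64 CPM) in WT replicate 3 and 84 counts (7.68 CPM) in Gpr115-KO replicate 3. Of all tested genes 5.01% had these same 3 libraries highest, and of the 9 tested keratinizing oral epithelium markers 7 did. Krt4, a keratin of the oral lining, read 47.5, 2.16 and 33.7 CPM (WT) against 113, 2.99 and 3.57 CPM (Gpr115-KO). Of the 12 tested dental epithelium markers 3 had these libraries highest. The set of 3 libraries was picked after the values were seen, so these counts are a description. How much of the level of these 4 genes came from oral epithelium was not tested.

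**Figure D2:**
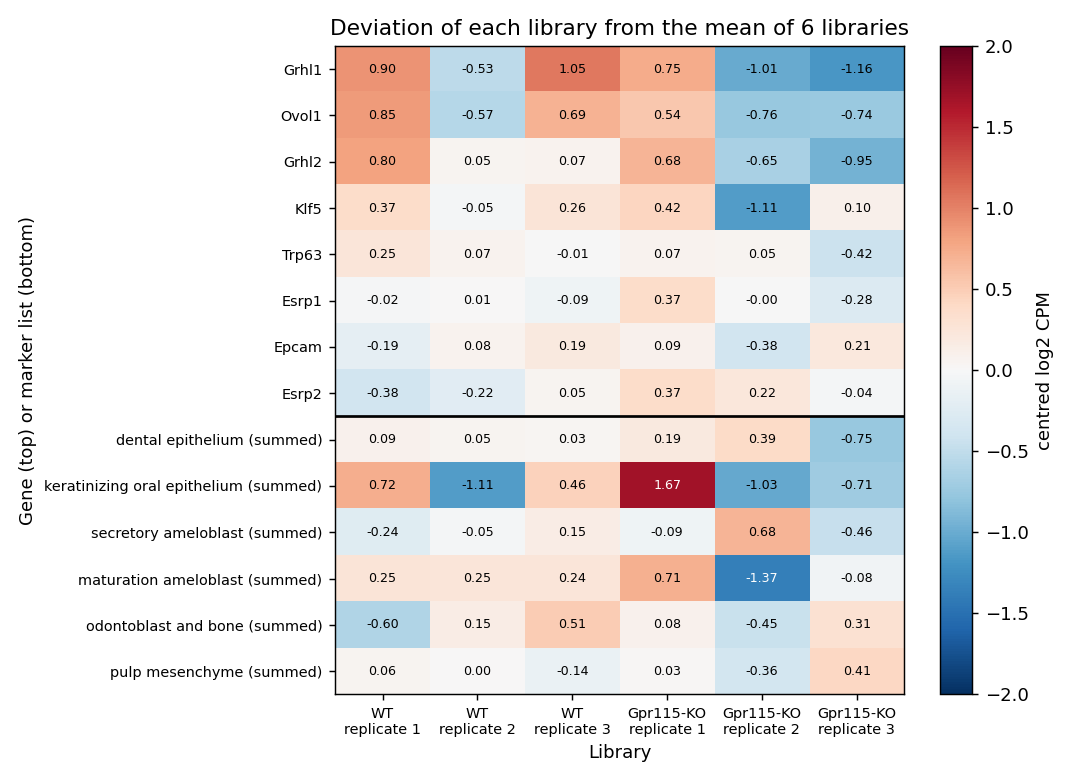
Deviation of each library from the mean of the 6 libraries on the log2 CPM scale, for the 8 tested genes (top) and for the summed CPM of 6 marker lists (bottom), in red where higher and blue where lower. Grhl1 and Ovol1 are red in WT replicates 1 and 3 and Gpr115-KO replicate 1, as is the keratinizing oral epithelium sum, while Trp63, Esrp1, Epcam and Esrp2 stay between −0.42 and 0.37.

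The splicing regulators were steadier. Esrp1 (ENSMUSG00000040728; chromosome 4, 11331933 to 11386783, minus strand) read 23.7, 24.3 and 22.7 CPM (WT) against 31.2, 24.0 and 19.8 CPM (Gpr115-KO). The WT libraries lay within the Gpr115-KO range, and Gpr115-KO replicate 1 was the highest. On the log2 scale the fold change was 0.09 (SE 0.19, 95% interval −0.33 to 0.51, edgeR adjusted p = 0.889), and −0.10 without Gpr115-KO replicate 1.

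Esrp2 (ENSMUSG00000084128; chromosome 8, 106130319 to 106136974, minus strand) read 5.08, 5.68 and 6.91 CPM (WT) against 8.66, 7.80 and 6.49 CPM (Gpr115-KO). Gpr115-KO replicates 1 and 2 lay above the WT range and replicate 3 within it. It had the highest fold change of the 8 tested genes, 0.38 on the log2 scale (SE 0.25, 95% interval −0.17 to 0.92), and also their smallest adjusted p in edgeR, 0.573. Of its 4340 exonic bases 219 are shared with Nfatc3 on the opposite strand, which read 7.59 to 12.5 CPM, and 119 with 1810019D21Rik. Per kilobase Esrp1 exceeded Esrp2 by a ratio of 3.21, 2.95 and 2.26 in WT and of 2.48, 2.12 and 2.10 in Gpr115-KO. The ratios of the genotypes overlapped.

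Epcam (ENSMUSG00000045394; chromosome 17, 87635979 to 87651129, plus strand) read 13.6, 16.4 and 17.7 CPM (WT) against 16.5, 11.9 and 17.9 CPM (Gpr115-KO). Its lowest library was Gpr115-KO replicate 2. The log2 fold change was −0.04 (SE 0.21, 95% interval −0.51 to 0.43, edgeR adjusted p = 0.957). It lay above 0 on library totals alone (0.05) and when libraries were scaled to dental epithelium genes (0.22). In those settings the median of all tested genes was 0.09 and 0.21, so the shift was not particular to Epcam. The Epcam value also lay above 0 without WT replicate 3 (0.05) and without Gpr115-KO replicate 2 (0.12). Of the 9 genes Epcam alone lies on chromosome 17, which carries Adgrf4 and 18 of the 24 genes called in all. It begins 44.9 Mb from Adgrf4 and 19.9 Mb beyond the last called gene of that chromosome.

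**Figure D3:**
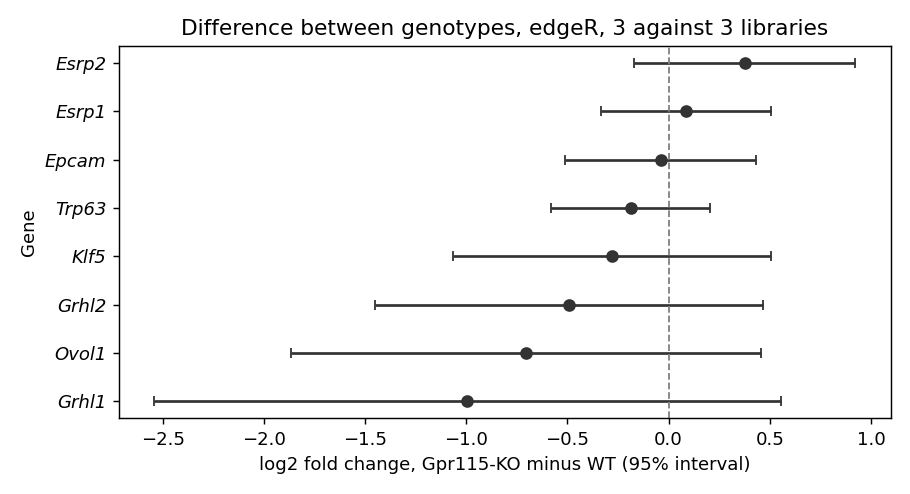
Log2 fold change, Gpr115-KO minus WT, of the 8 tested genes (points) with 95% intervals from edgeR (bars), 3 against 3 libraries. Every interval crosses 0, and those of Grhl1 and Ovol1 are the widest, reaching −2.54 and −1.87.

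The intervals differ in what sizes they leave. For Trp63 the interval covers folds from 0.668 to 1.153, for Esrp1 from 0.794 to 1.42 and for Epcam from 0.702 to 1.35. For Grhl1 it covers 0.172 to 1.47 and for Ovol1 0.274 to 1.37. The highest library exceeded the lowest by 1.51-fold for Epcam, 1.57-fold for Esrp1, 1.59-fold for Trp63 and 1.71-fold for Esrp2, below the median of 1.84-fold over all tested genes. The ratio was 3.02 for Klf5, 3.39 for Ovol1, 3.43 for Grhl2 and 6.67 for Grhl1, where few counts add to the spread.

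Relative to the summed dental epithelium markers, the genotypes overlapped for all 9 genes too. These markers share Krt5, Krt14, Cdh1, Perp, Dsp and Itgb4 with the p63 and Grainyhead-like targets listed below. The ratios of Trp63 and the Grainyhead-like genes are thus not free of their own targets. Epcam stood at 4.26, 5.24 and 5.75 CPM per 1000 CPM of the dental epithelium markers in WT and at 4.82, 3.02 and 10.04 in Gpr115-KO. Grhl2 stood at 6.79, 4.11 and 4.23 in WT and at 5.82, 1.98 and 3.53 in Gpr115-KO. Gpr115-KO replicate 2, the library with the highest dental epithelium sum, was the lowest of the 6 for both genes. Gpr115-KO replicate 3 was the highest for Epcam. By the median of these 12 markers Gpr115-KO replicate 2 was not the highest. That library had a median of 93.8 CPM, below every WT library (102 to 124 CPM). Gpr115-KO replicates 1 and 3 had medians of 137 and 69.1 CPM. Ratios to the median were not tested.

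**Figure D4:**
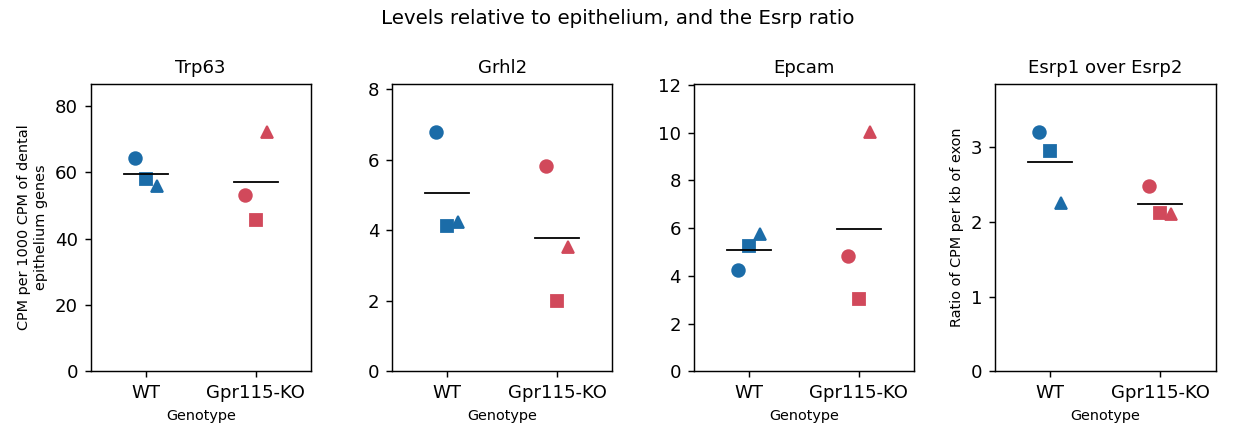
Levels of Trp63, Grhl2 and Epcam in CPM per 1000 CPM of the summed dental epithelium markers, and the ratio of Esrp1 to Esrp2 in CPM per kb of exon, by genotype; points are libraries, a marker shape for each replicate number, and bars are group means. The genotypes overlap in all 4 panels, and Epcam reaches 10.04 in Gpr115-KO replicate 3.

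Other epithelial transcription and splicing regulators were tested beside the 9. Of 14 listed, 10 were tested and none was called in either direction, with 8 below 0 and a median of −0.05. Over all tested genes only 0.15% were called. A list this short would rarely hold a call, so 0 calls says little, here and in the lists below. Of the 10, 1 had genotypes without overlap, against 17.5% of all tested genes. Sp6, a zinc finger factor of the enamel organ that is also a secretory ameloblast marker, read 40.4, 55.9 and 76.2 CPM (WT) against 79.3, 101 and 88.8 CPM (Gpr115-KO). Every Gpr115-KO library was above every WT library, at 0.64 on the log2 scale (SE 0.22, edgeR adjusted p = 0.291). Rbm47, an RNA-binding splicing regulator of epithelia, read 46.2, 45.8 and 37.4 CPM (WT) against 40.4, 20.5 and 24.5 CPM (Gpr115-KO) (log2 fold change −0.60, SE 0.24, edgeR adjusted p = 0.348). Ovol2, the paralog of Ovol1, had −0.59 (SE 0.58). Tfap2c, Elf3, Cebpa and Foxi3 were not tested. Foxi3 had a count of 0 in all 6 libraries, where 3 counts were worth 0.272 to 0.342 CPM.

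Genes known to be activated by p63 or by Grainyhead-like factors had no called member. Of 17 listed, 16 were tested, 10 lay below 0 and the median was −0.05. Cdh1, which encodes E-cadherin, read 113, 105 and 89.9 CPM (WT) against 75.2, 72.1 and 52.6 CPM (Gpr115-KO). Its genotypes did not overlap, but the log2 fold change of −0.62 (SE 0.18) had an edgeR adjusted p of 0.245 and was not called. Col17a1, a hemidesmosome collagen, read 38.3, 44.3 and 46.9 CPM (WT) against 51.5, 69.1 and 51.1 CPM (Gpr115-KO), again without overlap (0.41, SE 0.17, edgeR adjusted p = 0.366). Tgm1, a transglutaminase of the cornified envelope, had 0.47 (SE 0.30). Of the 16 tested, these 2, Cdh1 and Col17a1, had genotypes without overlap, against 17.5% of all tested genes. They lay on opposite sides of 0. Cldn4, a claudin gene known as a Grhl2 target, read 0.214 to 0.798 CPM and was not tested.

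Transcripts that ESRP proteins splice were counted per gene, so the choice of exon cannot be read from these data. Of 7 listed all were tested and none was called, with 4 below 0 and a median of −0.10. Genotypes did not overlap in 2 of the 7, against 17.5% of all tested genes. Enah, an actin regulator, read 113, 105 and 95.3 CPM (WT) against 78.6, 91.1 and 71.1 CPM (Gpr115-KO), without overlap (log2 fold change −0.38, SE 0.16, edgeR adjusted p = 0.360), and its value was −0.10 with the gene length trend removed. Cd44, the hyaluronan receptor gene, read 437, 448 and 477 CPM (WT) against 406, 411 and 336 CPM (Gpr115-KO), also without overlap (−0.24, SE 0.17, edgeR adjusted p = 0.591). Fgfr2 had −0.51 (SE 0.35), and −0.09 without WT replicate 1. The other splicing factors, which also work outside epithelium, had 3 of 6 below 0, a median of −0.03 and no call. Among them Mbnl1 ranged from 369 CPM in Gpr115-KO replicate 2 to 2499 CPM in WT replicate 1 (−0.47, SE 0.63, and −0.02 without Gpr115-KO replicate 2), Mbnl2 had 0.24 (SE 0.15) and Qk had −0.14 (SE 0.16).

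No relative or partner of EpCAM was called. Of 8 listed 7 were tested, 3 lay below 0 and the median was 0.01. Spint2, a membrane inhibitor of serine proteases, had a log2 fold change of 0.22 (SE 0.28), Cldn1 0.10 (SE 0.18) and Prss8, a membrane serine protease, −0.09 (SE 0.31). Cldn7, the claudin that binds EpCAM, was at or below 0.342 CPM in every library, and was not tested. Repressors of the epithelial state were not called either: of 8 listed 7 were tested, 5 lay below 0 and the median was −0.17. Prrx1 had 0.34 (SE 0.23), Twist2 −0.51 (SE 0.40, and −0.11 without WT replicate 1) and Twist1 −0.25 (SE 0.24).

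**Figure D5:**
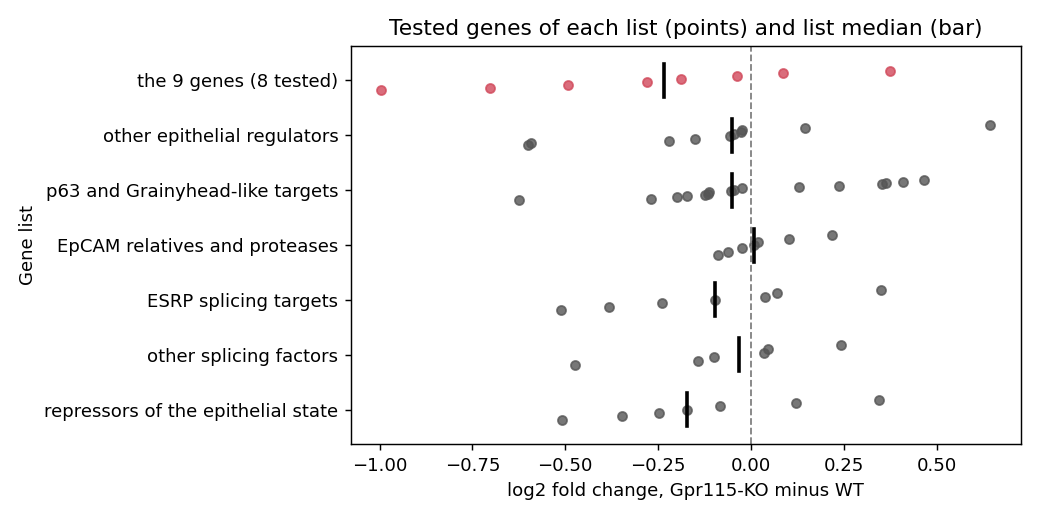
Log2 fold change, Gpr115-KO minus WT, of each tested gene of the 9 genes (red) and of 6 related lists (grey), with the list median as a black bar. List medians run from −0.23 for the 9 genes to 0.01 for the EpCAM relatives and proteases, and no point was called.

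The genes whose level across the 6 libraries was most like the mean of the 8 tested genes were found among 5285 protein-coding genes with a mean log2 CPM of at least 3, by Pearson's r on centred log2 CPM over the 6 libraries. Pmepa1, which encodes a membrane protein that limits TGF-beta signalling, had r = 0.983, Tiam1, a Rac exchange factor, 0.979, Mal2, a protein of apical transport, 0.978, and Klk4, the protease that clears enamel matrix, 0.977. Mal2 read 52.7, 29.7 and 61.7 CPM (WT) against 89.1, 18.3 and 15.1 CPM (Gpr115-KO). Klk4 read 83.2, 64.7 and 95.2 CPM (WT) against 103, 53.0 and 50.2 CPM (Gpr115-KO). In both, as in Grhl1 and Ovol1, WT replicates 1 and 3 and Gpr115-KO replicate 1 were highest. The mean used to pick them was itself highest in these libraries, at 0.32, 0.28 and 0.41 on the centred log2 scale. This likeness thus followed from the choice and is not a separate result. The mean was taken over unscaled deviations, so genes of wide spread weigh most in it. Grhl1 ran from −1.16 to 1.05, while Trp63, Esrp1, Epcam and Esrp2 stayed between −0.42 and 0.37. Esrp2 in WT replicate 1 (−0.38) and Epcam in Gpr115-KO replicate 3 (0.21) were opposite in sign to the mean (0.32 and −0.41). Likeness to the mean is thus not likeness to each of the 8 tested genes. The points share their libraries and scaling, and the r values are the highest of many correlations.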

How the data were processed

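The authors deposited raw counts per gene (48709 gene rows, and 15 transgene rows with at most 8 counts in a library, kept out of all sizes and tests) and a normalized signal, CPM scaled by TMM per the file name. Per the labels' protocols, TRIzol was used for total RNA and a Nextera XT kit, which is not strand-specific, for the libraries. STAR 2.5.2a, DESeq2, edgeR and limma are named in the submitters' processing notes, with GRCm38 (mm10) as the build. The sources used here do not give the counting tool or annotation release. Divided by the value of 1 read, 100% of the deposited signal values were whole (tolerance 0.01 reads), and 100% equalled the counts. On these reads edgeR thus had to call the same 6 higher and 18 lower genes as on the counts.

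The test was edgeR 4.0.16 in R 4.3.3: filterByExpr (minimum count 10, minimum total 15), TMM, a robust quasi-likelihood fit with genotype as the only term, two-sided, Benjamini-Hochberg over 16011 genes. Standard errors were taken from the F statistic, and 95% intervals from a t distribution with the moderated degrees of freedom. On simulated counts for this comparison with 15593 genes tested, 51 of 100 genes with a true log2 change of 1, and 92.8% of those with 2, were recovered. The simulated set gave 147 calls, against 24 in the data, so its Benjamini-Hochberg cutoff was looser. These shares may thus overstate recovery in the data. Coordinates, overlaps and exonic lengths are from GENCODE vM21, and near-identical copies were searched with blastn 2.17.0 (95% identity over 150 nt). Grhl2 shares such a stretch with Nmrk1. Replicate pairs had a chi-square per degree of freedom of 14.8 to 60.7, so none was the same library sequenced again. These values cannot tell separate animals from separate preparations of the same RNA.

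The members and the 19 lists were chosen with earlier results of these data known. Named genes are the 9 members, Adgrf4, the 3 genes of smallest p in each of 6 related lists, and the 5 genes most like the members, of which 1 is not reported here; Krt4, Cldn4, Cldn7 and Foxi3 were added after their values were seen. Alternatives were DESeq2 size factors, library totals, no filter, a minimum of 10 counts in each library, DESeq2 1.42.0 (Wald test), limma-voom (limma 3.58.1), limma-trend on log2(deposited value + 1), no robust shrinkage, the replicate block, removal of each library's trend on gene length, scaling to dental epithelium genes, and each library left out in turn. The count test on recovered reads was added after seeing the data.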

Additional observations from a re-analysis of the deposited data

How the results depend on the processing

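Over 18 alternatives none of the 9 genes was called, and 137 of 143 log2 fold changes of the 8 tested genes kept their sign. Among the 18, edgeR on the recovered reads used the same counts as the main fit, so its values could not differ. The 6 that changed sign were Esrp1 without Gpr115-KO replicate 1 (−0.10), Klf5 without Gpr115-KO replicate 2 (0.059), and Epcam on library totals alone (0.053), scaled to dental epithelium genes (0.22), without WT replicate 3 (0.046) and without Gpr115-KO replicate 2 (0.12). Scaling to dental epithelium genes moved the median of all genes from 0.01 to 0.21, and library totals alone moved it to 0.093. Among the other named genes the sign changed with that scaling for Twist1 (0.040), Prss8 (0.12) and Qk (0.079), with the length trend removed for Qk (0.066), without WT replicate 1 for Cldn1 (−0.030) and Prss8 (0.054), and without Gpr115-KO replicate 2 for Spint2 (−0.12) and Prss8 (0.050). Leaving out each library gave −2.14 to −0.60 for Grhl1, −1.17 to −0.19 for Grhl2, −1.33 to −0.43 for Ovol1, −0.27 to −0.043 for Trp63, 0.28 to 0.51 for Esrp2, −0.10 to 0.23 for Esrp1, −0.60 to 0.059 for Klf5, −0.16 to 0.12 for Epcam, −0.24 to 0.054 for Prss8, −0.81 to −0.094 for Fgfr2, −0.83 to −0.019 for Mbnl1, −1.29 to −0.16 for Ovol2, −0.93 to −0.11 for Twist2 and 0.18 to 0.60 for Prrx1, with Grhl1, Grhl2, Ovol1, Klf5 and Trp63 lowest without Gpr115-KO replicate 1. Sp6 and Cdh1 passed the threshold without the count filter (edgeR adjusted p = 0.0375 and 0.0442). Adgrf4 passed it there (7.4e-07), with DESeq2 (4.9e-04), with the replicate block (0.0254; log2 fold change −1.22) and without Gpr115-KO replicate 1 (0.0143; −1.45), and not under the other alternatives. Grhl3 had a value only without the count filter, and Grhl1 had none with at least 10 counts in every library.

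Over all genes the counts of 6 higher and 18 lower became 135 and 365 without the count filter, 64 and 179 with DESeq2, and 18 and 54 with the replicate block; the higher count was 12 when scaled to dental epithelium genes, and the lower count 11 on library totals alone. Leaving out each library gave 5 to 10 higher and 7 to 39 lower genes, and 0 members. The lowest lower counts came without WT replicate 1 (9) and WT replicate 2 (7), the highest without Gpr115-KO replicate 1 (39), and 10 higher without WT replicate 2. Whether the replicate numbers pair the samples was not settled. Same-numbered libraries had correlations of deviations of 0.27, 0.034 and −0.072, and 2 of 6 libraries correlated best with their own number. So few pairs cannot exclude a pairing. The replicate block moved the SE both ways, from 0.42 to 0.24 for Grhl2 and from 0.25 to 0.28 for Esrp2. The causes of these shifts were not tested. Depth limits Grhl1, Grhl3 and Ovol1 most, with at most 44 counts in any library.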
